A study of Mus musculus with 16 samples.

Results

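The genes described here changed in the same direction with each of 3 hairpin RNAs, relative to an empty vector, in cultured mouse neurons. They were found by fitting the 12 hairpin libraries and the 4 empty vector libraries in 1 model and keeping the genes called at an adjusted p below 0.05, with the same sign, for each hairpin against the empty vector. Of 19479 genes tested, 2240 met this rule, 1101 of them higher and 1139 lower. The cells were primary cultures of forebrain neurons of perinatal mice, transduced with lentiviral vectors, and total RNA was sequenced after removal of ribosomal RNA. The groups of 4 libraries each received the empty vector (Empty_Vector), a vector with a short hairpin RNA (shRNA, here the unmutated hairpin), the hairpin with 2 point mutations (shRNA_2bp, the 2-mutation hairpin) or the hairpin with 5 point mutations (shRNA_5bp, the 5-mutation hairpin). All groups, the controls included, carried a lentiviral vector, and the labels give neither the promoter, nor the mouse strain or age beyond perinatal, nor the transcript the hairpin was designed against. Whether the 4 replicates of a group came from separate cultures is not stated in the labels. The p-values therefore cover the spread among these libraries only, which may be technical. The series asks, per its title, whether hairpin RNAs disturb microRNAs and the transcriptome of neurons apart from their target.

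A short hairpin RNA enters the pathway of the cell's own microRNAs. It is exported from the nucleus by exportin 5, cut by Dicer and loaded into an Argonaute protein, which with the GW182 (Tnrc6) proteins lowers transcripts that pair with the small RNA. Pairing of a short stretch near the 5′ end, the seed, is enough to lower many transcripts weakly, and point mutations change that stretch or the pairing with the intended target. An empty vector carries no hairpin and therefore does not load this pathway.

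The libraries held 33795369 to 49824569 counted reads. Rtn4, which had the smallest p of all genes in the test among the hairpins, averaged 863, 30.5, 127 and 828 counts-per-million (CPM) with the empty vector, the unmutated, the 2-mutation and the 5-mutation hairpin, and was not called with the 5-mutation hairpin (log2 fold change -0.06 ± 0.04, SE; adjusted p = 0.203). The noncoding transcript Gm26917 took 6.17% of the counts with the empty vector and 7.61%, 11.2% and 8.75% with the 3 hairpins. Of the other cell types, 11 of 14 microglia and macrophage markers stayed below 1 CPM in each library, and astrocyte markers summed to 1724 to 2072 CPM with the empty vector, 1518 to 2079 with the unmutated, 1509 to 1771 with the 2-mutation and 1014 to 1395 with the 5-mutation hairpin, the last all below the controls. Oligodendrocyte lineage markers summed to 58.3 to 69.5 CPM with the empty vector, 89.4 to 108.6 with the unmutated, 52.5 to 58.7 with the 2-mutation and 98.8 to 113.9 with the 5-mutation hairpin. The part of these shifts in the results below was not tested. Replicate 3 of the 5-mutation hairpin stood apart for markers of endothelial cells, pericytes and fibroblasts, which summed to 197.1 CPM there and to 27.3 to 57.0 CPM in the other 15 libraries.

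The DNA just before the start of 5 members is shown because it carries letters that recur in the gene groups below. Each line gives the 250 bases before the transcription start, 5′ to 3′ on the gene's strand, from RefSeq on GRCm38.p6. In the first 3, which belong to cholesterol synthesis genes that were lower with all hairpins, capitals mark CCAAT, read on either strand (ATTGG is its reverse complement), and TCACNCCAC, a sterol response element. In the last 2, which belong to replication genes that were higher with all hairpins, capitals mark TTTNNCGC on either strand, the core of an E2F site.
Hmgcs1 (chr13:119690101-119690350, + strand): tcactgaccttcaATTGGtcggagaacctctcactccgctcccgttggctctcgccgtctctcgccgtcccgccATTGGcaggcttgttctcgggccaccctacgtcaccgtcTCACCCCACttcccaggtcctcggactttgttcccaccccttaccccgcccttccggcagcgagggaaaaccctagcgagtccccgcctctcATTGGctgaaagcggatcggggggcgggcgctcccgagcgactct
Insig1 (chr5:28071162-28071411, + strand): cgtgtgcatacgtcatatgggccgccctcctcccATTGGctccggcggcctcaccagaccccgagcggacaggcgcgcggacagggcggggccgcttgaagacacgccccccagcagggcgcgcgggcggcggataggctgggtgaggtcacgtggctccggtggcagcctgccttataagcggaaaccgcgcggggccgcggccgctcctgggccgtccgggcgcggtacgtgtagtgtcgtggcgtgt
Nsdhl (chrX:72918271-72918520, + strand): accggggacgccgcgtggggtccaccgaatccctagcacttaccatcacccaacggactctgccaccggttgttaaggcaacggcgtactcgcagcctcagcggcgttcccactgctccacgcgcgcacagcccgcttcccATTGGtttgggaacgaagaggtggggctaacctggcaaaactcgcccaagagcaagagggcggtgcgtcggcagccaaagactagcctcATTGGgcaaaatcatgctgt
Mcm5 (chr8:75109259-75109508, + strand): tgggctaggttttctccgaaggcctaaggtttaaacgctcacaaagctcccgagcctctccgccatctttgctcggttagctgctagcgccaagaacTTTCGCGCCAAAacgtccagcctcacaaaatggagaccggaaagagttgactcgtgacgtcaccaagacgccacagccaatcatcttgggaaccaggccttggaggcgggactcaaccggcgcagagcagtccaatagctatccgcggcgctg
Mcm6 (chr1:128359706-128359955, - strand): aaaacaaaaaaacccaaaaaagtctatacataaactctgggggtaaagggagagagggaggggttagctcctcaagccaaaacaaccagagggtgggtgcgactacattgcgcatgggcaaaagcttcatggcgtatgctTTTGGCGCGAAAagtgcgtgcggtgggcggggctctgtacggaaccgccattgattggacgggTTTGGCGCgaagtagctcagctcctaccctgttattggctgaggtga

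Hmgcs1 had CCAAT matches on the minus strand 237, 176 and 45 bases before the start and a sterol response element 137 bases before it, Insig1 had 1 CCAAT match 216 bases before and Nsdhl had matches 109 and 20 bases before. In Mcm5 the E2F matches on the 2 strands began 153 and 149 bases before the start and overlap each other, as do those 110 and 106 bases before the start of Mcm6, which had another at 47 bases. Over windows of 300 bases, from 250 before to 50 after each start, CCAAT stood in 37.5% of 15727 windows of 12275 tested genes with an entry. It stood in 16 of 20 windows of cholesterol synthesis genes (80.0%) and in 11 of the 12 windows of those lower with all hairpins (91.7%). The sterol response element stood in 1.14% of all windows and, within the cholesterol list, in that of Hmgcs1. The E2F core stood in 7.74% of all windows, in 9 of 22 windows of replication and mitosis genes (40.9%) and in 5 of 9 windows of those higher with all hairpins (55.6%). Over all members the shares lay closer to the background: CCAAT stood in 35.6% of the windows of the higher and 36.7% of those of the lower genes, and the E2F core in 11.4% and 6.62%. A match describes the letters in these windows and is neither a bound site nor a cause.

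Each hairpin on its own changed many genes. The unmutated hairpin raised 20.8% and lowered 19.5% of the genes tested, the 2-mutation hairpin raised 32.5% and lowered 30.8%, and the 5-mutation hairpin raised 28.4% and lowered 26.5% (edgeR quasi-likelihood, adjusted p below 0.05). Of 4374 genes called with each of the 3, 2134 did not move in 1 direction, and the others were the 1101 higher (5.65% of genes tested) and 1139 lower (5.85%). The 3 comparisons share the 4 empty vector libraries, so a deviation of those libraries moves all 3 alike, and the size of the overlap is given as a count without a test. In 848 of the 1101 higher genes all 12 hairpin libraries lay above all 4 empty vector libraries (4.81% of all genes tested did so), and in 929 of the 1139 lower genes all 12 lay below (5.11%). The median log2 fold change over the 3 hairpins was 0.51 for the higher and -0.69 for the lower genes, against 0.00 for all genes tested. Few moved far with each hairpin: 91 higher and 99 lower genes changed by at least 1 on the log2 scale with all 3, and 301 and 385 by at least 0.5. Nearest inside the threshold were Ccnc and Med30 (higher, largest adjusted p of the 3 comparisons 0.0499 and, rounded, 0.05) and Clmn and Gxylt2 (lower, 0.0494 and 0.0496). Just outside it were Ppie and Tex14, both at 0.0502, and H2-Q7 and Myzap at 0.0503 and 0.0501.

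Changing in 1 direction did not mean changing by 1 amount. A test among the 3 hairpins called 895 of the 1101 higher genes (81.3%) and 969 of the 1139 lower genes (85.1%), beside 77.7% of all genes tested. Its contrasts leave out the control libraries, which still share in the estimate of the spread. For 206 higher and 170 lower genes no difference among the hairpins was called. The 2-mutation hairpin gave the largest change of the 3 for 580 higher and 597 lower genes, the 5-mutation hairpin for 398 and 366, and the unmutated hairpin for 123 and 176. Among all 19479 genes tested the numbers were 9559, 6493 and 3427, in the same order of hairpins. Directly compared, the 2-mutation hairpin was above the unmutated for 586 of the higher members and below it for 116, and it was below it for 624 of the lower members and above it for 195. Over all 19479 genes tested it was above the unmutated for 6145 and below it for 6070.

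**Figure D1:**
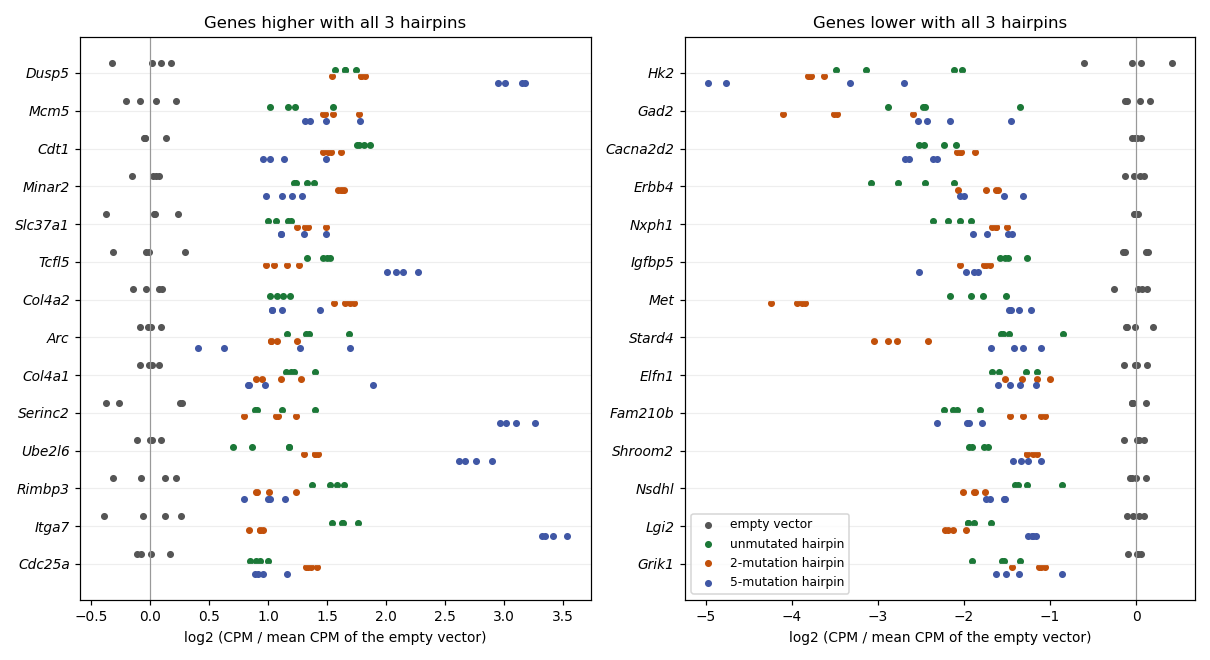
Levels of the 14 genes with the largest smallest rise (left) and the 14 with the largest smallest fall (right) over the 3 hairpins, as log2 of the CPM of each library relative to the mean CPM of the 4 empty vector libraries. Each point is 1 library, coloured by group, with 4 libraries a group. No hairpin library reaches into the range of the empty vector libraries in any of these genes, which the choice of these genes required, and the 5-mutation hairpin stands apart for Dusp5, Tcfl5, Serinc2, Ube2l6 and Itga7.

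Cholesterol synthesis genes formed the group with the largest share of members. Of 24 measured genes of this list, 18 were lower with all 3 hairpins and none was higher, beside 5.85% of all genes that were lower, and the median log2 fold change over the hairpins was -0.95. Neurons in culture make sterols through the mevalonate pathway, which is switched on by the factor SREBP2 when membrane sterol is low. Lower members included genes from the early steps (Acat2, Hmgcs1, Mvk, Mvd) over isoprenoid and squalene synthesis (Idi1, Fdps, Fdft1, Sqle) to ring closure and later steps (Lss, Msmo1, Nsdhl, Hsd17b7, Sc5d). They also included Srebf2, which encodes SREBP2, Insig1, which retains its escort protein in the endoplasmic reticulum, and the sterol carrier gene Stard4.

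Insig1 (chr5:28071363-28078662) stood at 139, 147, 158 and 145 CPM with the empty vector. It stood at 60.1, 59.0, 85.4 and 56.8 CPM with the unmutated, 69.5, 81.5, 88.2 and 69.5 with the 2-mutation and 60.1, 77.0, 68.8 and 65.2 with the 5-mutation hairpin. All 12 hairpin libraries were thus below the 4 controls, with replicate 3 of the unmutated hairpin the highest of its group. The log2 fold changes were -1.17 ± 0.12, -0.93 ± 0.12 and -1.12 ± 0.12 (SE; largest adjusted p = 9.34e-06), and no difference among the hairpins was called (F test, adjusted p = 0.189). Nsdhl (chrX:72918557-72958514), a sterol dehydrogenase of the late pathway, stood at 83.0, 78.9, 89.9 and 80.6 CPM with the empty vector, 34.6, 32.0, 46.0 and 31.4 with the unmutated, 22.5, 22.8, 24.6 and 20.7 with the 2-mutation and 24.9, 28.8, 28.9 and 25.6 with the 5-mutation hairpin. Its groups did not overlap, and its changes were unequal: -1.21 ± 0.10, -1.88 ± 0.10 and -1.62 ± 0.10 (SE; F test among hairpins, adjusted p = 3.40e-05). Fdps, which makes farnesyl diphosphate, averaged 8.10 ± 0.597 CPM with the empty vector and 3.75 ± 0.970, 1.0 ± 0.156 and 2.15 ± 0.440 with the 3 hairpins (SD, n = 4). Lss, lanosterol synthase, fell from 74.4 CPM to 43.9, 14.3 and 32.7, and Sc5d, a late desaturase, had log2 fold changes of -0.53, -1.10 and -1.19. Fdps and Lss fell most with the 2-mutation hairpin, by 8.09 and 5.21 fold.

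The 12 hairpin libraries lay below the controls for 16 of the 18 genes, as for 929 of all 1139 lower genes. Msmo1 was an exception, where replicate 3 of the unmutated hairpin reached into the control range. Without that library the list again had 18 genes lower with all hairpins. Over all 16 fits that left out 1 library it had 16 to 18, with Msmo1 lost without replicate 2, 3 or 4 of the empty vector or replicate 1, 2 or 4 of the unmutated hairpin. Among the genes that were not members, Dhcr7, Cyp51, Ebp, Tm7sf2 and Pmvk each missed the threshold or rose with at least 1 hairpin. Idi1, Fdft1, Hmgcs1 and Lss overlap exons of opposite-strand genes, and whether reads were counted by strand is not given in the sources used here. The same uncertainty holds for Rtn4 (opposite Eml6), Ccnc (Tstd3), Ppie (Bmp8b), Shank1 (1700008O03Rik), Cacna2d2 (Gm17141), Kcnj9 (Gm36937), Epha6 (Gm9017), Bnip3 (Gm45507), Nos1 (Gm26995), Wdhd1 (Gm49150), Fbn1 (Gm9913), Slc37a1 (AC154652.2), Ago2 (Chrac1) and Dgcr8 (Trmt2a), whose values are given elsewhere in the text.

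**Figure D2:**
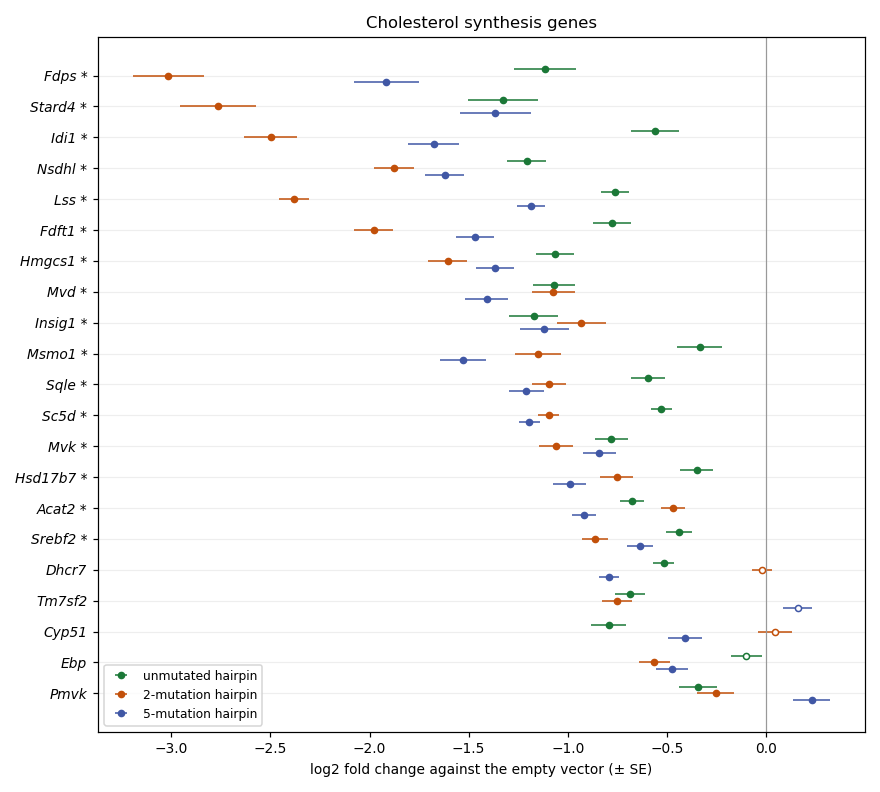
Log2 fold change of 21 cholesterol synthesis genes with each hairpin against the empty vector, with the standard error as bars (4 libraries a group), ordered by the mean over the hairpins. Filled points passed an adjusted p of 0.05, open points did not, and asterisks mark the 16 plotted genes lower with all 3 hairpins.

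Markers of inhibitory (GABA-releasing) neurons were the second group. Of 20 measured, 12 were lower with all 3 hairpins, beside 5.85% of all genes, and none was higher. The median log2 fold change over the hairpins was -1.16. In 10 of the 12 all hairpin libraries lay below the controls, as in 929 of all 1139 lower genes. The 20 genes summed to 1460 to 1710 CPM with the empty vector, 475.5 to 723.0 with the unmutated, 799.3 to 1046 with the 2-mutation and 527.3 to 727.1 with the 5-mutation hairpin. In bulk RNA, fewer inhibitory neurons and less of this RNA per neuron cannot be told apart. Members that make or load GABA included Gad1, Gad2 and Slc32a1. Others mark subtypes or the lineage: Pvalb, Calb2 and Npy, the receptor gene Erbb4, the neurexin ligand gene Nxph1 and the transcription factor genes Dlx6, Sox6 and Maf.

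Nxph1 (chr6:8948431-9249032) stood at 75.4, 76.3, 77.3 and 78.2 CPM with the empty vector, 15, 20.4, 16.9 and 18.6 with the unmutated, 24.2, 24.9, 24.9 and 27.1 with the 2-mutation and 23.2, 28.3, 20.7 and 27.3 with the 5-mutation hairpin. The control libraries lay within a narrow band and no hairpin library came near it. Its log2 fold changes were -2.12 ± 0.09, -1.60 ± 0.09 and -1.62 ± 0.09 (SE; largest adjusted p = 8.02e-12). Gad2 (chr2:22622205-22693874), which makes GABA at terminals, stood at 156, 191, 158 and 176 CPM with the empty vector, 23.0, 66.8, 30.6 and 31.1 with the unmutated, 9.94, 28.3, 14.9 and 15.3 with the 2-mutation and 31.5, 62.3, 29.4 and 38.2 with the 5-mutation hairpin. In each of the 4 groups, the empty vector included, replicate 2 was the highest, and all 12 hairpin libraries were below the controls. The log2 fold changes were -2.16 ± 0.37, -3.32 ± 0.39 and -2.07 ± 0.36 (SE; largest adjusted p = 3.86e-04). Erbb4, a neuregulin receptor of interneurons, averaged 153 ± 9.98 CPM with the empty vector and 26.0 ± 7.48, 45.5 ± 6.32 and 47.5 ± 11.9 with the hairpins (SD, n = 4). Pvalb, a calcium buffer of fast-spiking interneurons, was low in these cultures, at 1.5 ± 0.147 CPM with the empty vector and 0.328 ± 0.104, 0.0782 ± 0.0243 and 0.397 ± 0.101 with the hairpins. Calb2, another calcium buffer, had log2 fold changes of -1.05, -3.14 and -1.29, and Sox6 of -1.12, -0.80 and -1.5.

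Unlike Dlx6, Sox6 and Maf, other transcription factor genes of the list did not fall with every hairpin, nor did Sst. Dlx2 and Dlx5, which specify this lineage, fell with the unmutated and the 5-mutation hairpin but rose with the 2-mutation hairpin, with log2 fold changes of -0.56, 1.04 and -0.86 for Dlx2 and -1.18, 0.67 and -0.87 for Dlx5 in the order unmutated, 2-mutation, 5-mutation. Both differed among the hairpins (F test, adjusted p = 2.14e-10 and 2.27e-08). Lhx6 fell with the unmutated and 5-mutation hairpin (-1.69 and -1.5) and its value with the 2-mutation hairpin was 0.24, which missed the threshold. Sst, the somatostatin gene, fell with the unmutated and 2-mutation hairpin (-1.5 and -1.95), and its value with the 5-mutation hairpin was -0.08. These 4 genes were singled out after their values were seen. When 1 library was left out, 12 genes stayed called only if it was replicate 2 of a hairpin. In the other fits Npy, Slc32a1 or both lost the call, which left 10 or 11.

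**Figure D3:**
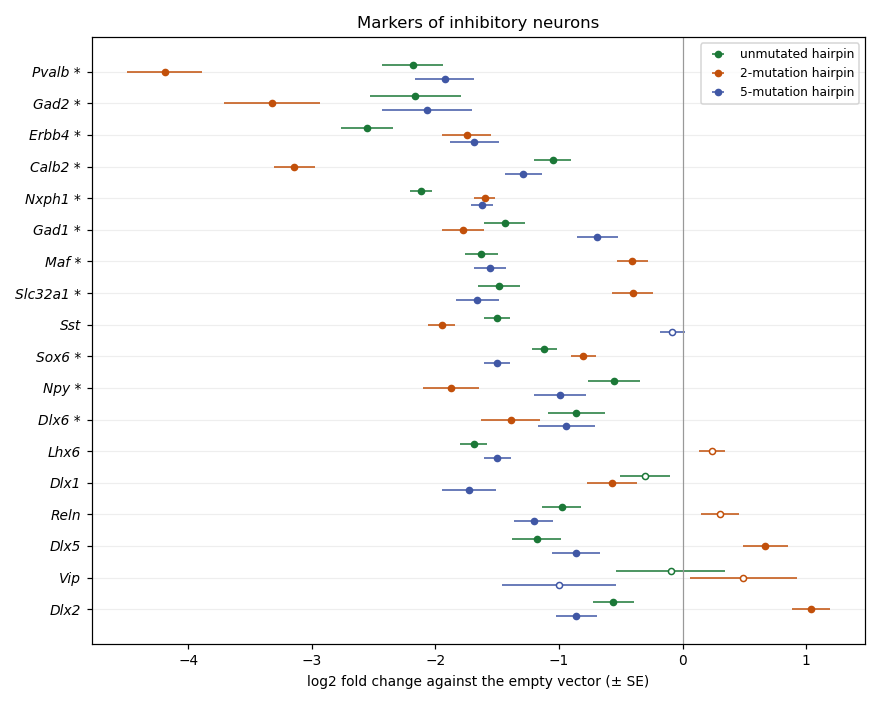
Log2 fold change of 18 inhibitory neuron markers with each hairpin against the empty vector, with the standard error as bars (4 libraries a group). Filled points passed an adjusted p of 0.05 and asterisks mark the 11 plotted genes lower with all 3 hairpins; Dlx2 and Dlx5 lie to the right of 0 with the 2-mutation hairpin and to the left with the others.

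No synaptic or ion channel gene on the lists was higher with all hairpins. Of 30 postsynaptic genes 13 were lower with all 3, of 34 voltage-gated ion channel genes 12, and of 30 presynaptic genes 9, against 5.85% of all genes. Receptors and scaffolds among them included Gria1, Gria3, Gria4, Grin2b, Grm5, Shank1, Shank2, Dlg3 and Dlg4, and the channels were Scn2a, Scn3a, Scn8a, Kcna2, Kcnc2, Kcnh1, Kcnq3, Kcnq5, Cacna1g and the auxiliary subunit genes Cacna2d1, Cacna2d2 and Cacna2d3. Over the 16 fits that left out 1 library the counts were 11 to 15, 11 to 12 and 7 to 10. Kcnq3 lost its call in 11 of these fits, Gria3 in 6, Pclo in 5, Syn3 in 4 and Grin2b in 1. Shank1, a postsynaptic scaffold, averaged 534 ± 45.6 CPM with the empty vector and 408 ± 24.5, 175 ± 4.92 and 325 ± 15.8 with the hairpins (SD, n = 4). Scn8a, the sodium channel of the axon initial segment, went from 268 ± 6.07 to 194 ± 8.41, 193 ± 3.54 and 117 ± 10.2 CPM. Syt2, the fast calcium sensor of many inhibitory terminals, had log2 fold changes of -3.19, -1.27 and -1.65 and Syt1, its counterpart in forebrain excitatory terminals, of -0.36, -0.44 and -0.56.

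Cacna2d2 (chr9:107399612-107529343) had the largest smallest fall of the channel list. It stood at 42.3, 45.4, 43.3 and 44.0 CPM with the empty vector, 7.95, 10.2, 7.63 and 9.31 with the unmutated, 10.3, 12.0, 10.6 and 10.7 with the 2-mutation and 7.0, 8.83, 6.78 and 8.54 with the 5-mutation hairpin. The highest of the 12 hairpin libraries lay at 12.0 CPM, far below the lowest control, and the log2 fold changes were -2.31 ± 0.09, -2.0 ± 0.09 and -2.49 ± 0.09 (SE; largest adjusted p = 1.23e-14).

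Broad neuronal and excitatory markers held fewer members. The background for each list of this paragraph is 5.65% of all genes higher and 5.85% lower with all hairpins. Of 20 pan-neuronal genes 3 were lower with all hairpins (Syt1, Rbfox3 and Celf4) and none was higher, with a median of -0.12. Of 18 excitatory neuron genes 3 were lower (Cux2, Mef2c and Camk2a) and Slc17a6, which loads glutamate into vesicles, was higher, at 26.5 ± 1.25 CPM with the empty vector and 39.2 ± 11.8, 138 ± 7.70 and 81.5 ± 4.26 with the hairpins (SD, n = 4). Replicate 3 of the unmutated hairpin was the highest of its group for Slc17a6, and without it the log2 fold change of that hairpin was 0.33 in place of 0.57 (adjusted p = 5.51e-05). Cux2, a factor of upper-layer neurons, averaged 84.4 ± 4.06 CPM with the empty vector and 41.2 ± 2.74, 47.3 ± 5.55 and 37.5 ± 4.83 with the hairpins. Rbfox3, the NeuN gene, fell most with the 5-mutation hairpin (log2 fold changes -0.50, -0.33 and -2.26). Of 18 astrocyte genes 2 were lower with all hairpins (Slc1a2 and Aldoc; the summed astrocyte markers were 1014 to 1395 CPM with the 5-mutation hairpin against 1724 to 2072 with the empty vector), of 32 axon guidance genes 3 (Unc5d, Ntn4 and Slit3), of 4 measured microglia and macrophage genes 1 (Csf1r, which lost the call without replicate 2 of the empty vector or replicate 1, 2 or 3 of the unmutated hairpin, adjusted p 0.0544 to 0.0792), and of 8 oligodendrocyte lineage and 13 endothelial, pericyte and fibroblast genes none.

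Other genes with the largest smallest falls had varied roles. Hk2 (chr6:82725025-82774454), a hexokinase that starts glycolysis, stood at 38.5, 27.8, 30.0 and 18.9 CPM with the empty vector, 3.26, 2.57, 6.63 and 7.09 with the unmutated, 2.05, 2.08, 2.09 and 2.34 with the 2-mutation and 2.88, 4.43, 1.06 and 0.918 with the 5-mutation hairpin. The controls themselves spread widely, and the highest hairpin library lay at 7.09 CPM. Its log2 fold changes were -2.56 ± 0.41, -3.74 ± 0.45 and -3.57 ± 0.44 (SE; largest adjusted p = 2.32e-04). Elfn1 (chr5:139907943-139974722), a synaptic adhesion protein of interneurons, fell by similar amounts with each hairpin (-1.41, -1.24 and -1.38; F test among hairpins, adjusted p = 0.407). Grik1, a kainate receptor subunit, had log2 fold changes of -1.57, -1.18 and -1.30, Igfbp5, a secreted binder of insulin-like growth factors, of -1.46, -1.81 and -2.03, and Lgi2, a secreted neuronal protein, of -1.87, -2.12 and -1.20. Shroom2, a regulator of cell shape, had -1.83, -1.22 and -1.28 and the mitochondrial protein gene Fam210b -2.05, -1.23 and -1.99.

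The most even falls, among genes past 0.7 on the log2 scale with each hairpin, were those of Epha6, Kcnj9, Pcyt1b, Vstm2l, Elfn1, Bnip3, Insig1 and Lypd6. Kcnj9 (chr1:172320501-172329318), a subunit of the G-protein-gated potassium channels that damp excitability, stood at 53.9, 54.6, 52.5 and 51.0 CPM with the empty vector, 30.2, 26.6, 32.4 and 27.6 with the unmutated, 26.4, 29.3, 26.6 and 26.5 with the 2-mutation and 28.2, 28.3, 28.2 and 28.9 with the 5-mutation hairpin. All 12 hairpin libraries lay between 26.4 and 32.4 CPM whichever hairpin was used (F test among hairpins, adjusted p = 0.228). Epha6, an ephrin receptor, had log2 fold changes of -0.79, -0.80 and -0.73, Pcyt1b, an enzyme of phosphatidylcholine synthesis, of -1.04, -0.97 and -0.93, and Bnip3, a mitochondrial protein induced by low oxygen, of -0.95, -0.93 and -1.16. The least even were Nos1, Met, Trhr and Extl1. Nos1 (chr5:117781032-117958840), neuronal nitric oxide synthase, stood at 104, 122, 118 and 133 CPM with the empty vector, 56.7, 60.8, 62.1 and 67.0 with the unmutated, 6.85, 6.23, 7.60 and 7.56 with the 2-mutation and 64.1, 67.6, 68.5 and 68.3 with the 5-mutation hairpin. The unmutated and 5-mutation libraries were thus close together and the 2-mutation libraries far below both (log2 fold changes -0.95, -4.08 and -0.83; F test among hairpins, adjusted p = 1.33e-18). Met, a receptor tyrosine kinase, had -1.82, -3.97 and -1.37, while Trhr, the receptor of thyrotropin-releasing hormone, fell most with the 5-mutation hairpin (-0.74, -1.25 and -3.0).

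Among the higher genes, those of the replication and mitosis list stood out by their share. Of 26 replication and mitosis genes 11 were higher with all hairpins and none lower, beside 5.65% of all genes, with a median of 0.60. They were Mcm2, Mcm3, Mcm4, Mcm5, Mcm6 and Mcm7, which form the replicative helicase, Cdt1, which loads it, the cyclin genes Ccne1, Ccne2 and Ccna2, and Top2a. Mature neurons do not divide, and the levels were low. The 26 genes summed to 118.7 to 126.7 CPM with the empty vector, 174.2 to 181.6 with the unmutated, 194.1 to 207.9 with the 2-mutation and 172.3 to 206.8 with the 5-mutation hairpin. Mki67, which marks dividing cells of any type, averaged 0.935 CPM with the empty vector and 1.25, 0.867 and 2.25 with the hairpins, and the part of dividing cells in this result was not tested.

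Mcm5 (chr8:75109569-75128439) stood at 2.21, 1.97, 1.79 and 1.66 CPM with the empty vector, 5.58, 4.28, 3.84 and 4.47 with the unmutated, 5.59, 5.33, 5.27 and 6.49 with the 2-mutation and 4.86, 4.73, 6.53 and 5.35 with the 5-mutation hairpin. All 12 hairpin libraries lay above the 4 controls, and the log2 fold changes of 1.26 ± 0.14, 1.58 ± 0.14 and 1.5 ± 0.14 (SE; largest adjusted p = 2.73e-07) did not differ past the threshold (F test, adjusted p = 0.0714). Cdt1 (chr8:122568015-122573554) stood at 1.87, 1.88, 2.12 and 1.87 CPM with the empty vector, 7.03, 6.50, 6.58 and 6.79 with the unmutated, 5.93, 5.51, 5.34 and 5.61 with the 2-mutation and 5.43, 3.75, 4.25 and 3.90 with the 5-mutation hairpin. It rose most with the unmutated and least with the 5-mutation hairpin (1.79, 1.53 and 1.16; F test, adjusted p = 6.30e-05). Mcm6 averaged 12.1 ± 0.569 CPM with the empty vector and 33.7 ± 1.63, 32.9 ± 1.19 and 16.9 ± 1.42 with the hairpins (SD, n = 4), and Mcm2 7.21 ± 0.540 against 13.6 ± 0.883, 10.8 ± 0.611 and 21.4 ± 2.72. Outside the list, Cdc25a, a phosphatase that opens S phase, and Wdhd1, a replisome protein, had log2 fold changes of 0.91, 1.35 and 0.98 and 0.72, 0.91 and 0.90. The mitotic genes Cdk1, Ccnb1 and Mki67, singled out after their values were seen, were called with the 5-mutation hairpin alone (log2 fold changes 2.07, 1.57 and 1.24). The list count was 9 to 12 over the fits that left out 1 library, and the lowest came without replicate 3 of the empty vector, where Mcm7 and Top2a lost the call.

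Of 25 immediate early and activity genes 4 were higher with all hairpins (Arc, Egr1, Egr4 and Nptx2) and Egr3 was lower. The shares over all genes were 5.65% and 5.85%. Of the 25, 12 were higher with the unmutated and 18 with the 5-mutation hairpin, beside 20.8% and 28.4% of all genes. Lower with these hairpins were 1 and 4, beside 19.5% and 26.5%. With the 2-mutation hairpin 7 were higher and 9 lower, beside 32.5% and 30.8% of all genes. Arc (chr15:74669083-74672570), which regulates glutamate receptors at the synapse after activity, stood at 4.51, 4.44, 4.24 and 4.80 CPM with the empty vector, 11.4, 11.2, 14.4 and 10.0 with the unmutated, 9.13, 9.48, 10.7 and 9.15 with the 2-mutation and 10.8, 6.92, 14.6 and 5.96 with the 5-mutation hairpin. The 5-mutation libraries spread most, and their lowest, 5.96 CPM, was still above the highest control. Its log2 fold changes were 1.39 ± 0.22, 1.09 ± 0.23 and 1.08 ± 0.23 (SE; largest adjusted p = 7.99e-04; F test among hairpins, adjusted p = 0.315). Egr4, a transcription factor, rose from 5.70 CPM to 8.93, 9.80 and 12.9, while its relative Egr3 went from 50.8 ± 1.30 CPM to 37.1 ± 2.12, 10.9 ± 1.48 and 33.6 ± 1.11 (SD, n = 4). Of 18 ERK feedback and output genes Dusp5 and Spry1 were higher with all hairpins and none was lower, near the same background. Spry1 lost the call without replicate 3 of the unmutated hairpin (adjusted p = 0.0791).

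Dusp5 (chr19:53529109-53542431), a nuclear phosphatase that switches off ERK, had the largest smallest rise among the members averaging at least 2 in log2 CPM whose hairpin libraries did not overlap the controls. It stood at 2.90, 2.74, 2.16 and 3.07 CPM with the empty vector, 8.54, 8.04, 9.09 and 8.53 with the unmutated, 9.62, 9.38, 7.93 and 9.41 with the 2-mutation and 24.6, 21.0, 24.1 and 21.9 with the 5-mutation hairpin. An exon of AC137853.2 overlaps it on the opposite strand. The unmutated and 2-mutation libraries overlapped and the 5-mutation libraries lay above both (log2 fold changes 1.66 ± 0.10, 1.75 ± 0.10 and 3.08 ± 0.10, SE; largest adjusted p = 1.55e-11; F test among hairpins, adjusted p = 2.65e-13).

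Matrix genes were named among the higher genes by the size or evenness of their rise. Col4a1 (chr8:11198423-11312826, - strand) and Col4a2 (chr8:11312805-11449287, + strand) encode the chains of basement membrane collagen and lie head to head, with exons that overlap. Col4a1 stood at 31.7, 28.4, 30.5 and 29.8 CPM with the empty vector, 66.7, 68.7, 79.1 and 70.1 with the unmutated, 58.1, 64.9, 73.0 and 55.9 with the 2-mutation and 53.5, 53.8, 112 and 59.1 with the 5-mutation hairpin. Replicate 3 of the 5-mutation hairpin was far above the other 3 of its group, and it is also the library with the high sum of endothelial, pericyte and fibroblast markers. Without it the log2 fold change of the 5-mutation hairpin was 0.88 ± 0.08 (SE) in place of 1.20 ± 0.21, still called (adjusted p = 1.03e-08), and that of Fbn1, a microfibril protein, was 0.80 ± 0.11 in place of 1.09 ± 0.21 (adjusted p = 4.71e-06). Col4a2 averaged 47.7 ± 3.77 CPM with the empty vector and 102 ± 4.98, 150.4 ± 7.51 and 107 ± 15.1 with the hairpins (SD, n = 4). Sdc1, a cell surface proteoglycan, had log2 fold changes of 0.71, 1.11 and 1.03, of which the last became 0.90 ± 0.14 without that library. No member of the list of 13 measured endothelial, pericyte and fibroblast markers was higher with all hairpins in the main fit. Their median log2 fold changes were 0.29, 0.65 and 1.19 with the unmutated, 2-mutation and 5-mutation hairpin. With the 5-mutation hairpin 7 of the 13 were called higher and 3 lower, beside 28.4% and 26.5% of all genes. In the fit with the replicate block 3 were higher with all hairpins, and without a filter on low counts 4 were higher and 1 lower. The part of these cells in the matrix changes was not tested.

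The least even rises included those of Itga7, Serinc2 and Hunk, each largest with the 5-mutation hairpin. Itga7 (chr10:128933818-128958282), a laminin-binding integrin subunit whose exons overlap those of Mettl7b on the opposite strand, stood at 2.81, 2.56, 1.79 and 2.25 CPM with the empty vector, 7.33, 7.25, 7.96 and 6.86 with the unmutated, 4.48, 4.49, 4.21 and 4.57 with the 2-mutation and 25.1, 27.3, 23.5 and 24.0 with the 5-mutation hairpin. All groups were apart from each other (log2 fold changes 1.66, 0.93 and 3.42; F test among hairpins, adjusted p = 1.84e-16). Serinc2, a membrane protein, had 1.09, 1.06 and 3.09, Ube2l6, an enzyme that conjugates ISG15, had 0.99, 1.38 and 2.74, and the kinase gene Hunk had 0.75, 0.86 and 2.75. Slc37a1, a sugar phosphate transporter, rose without a called difference among the hairpins (1.11, 1.35 and 1.27; F test, adjusted p = 0.15), Rimbp3 had 1.52, 1.01 and 0.98, and Tcfl5, a transcription factor gene that overlaps Col9a3 on the opposite strand, had 1.45, 1.11 and 2.12.

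Most genes of the machinery that handles hairpins were not members. Of 16 RNA interference genes 2 were higher with all hairpins (Tnrc6a and Dicer1) and 2 lower (Tnrc6b and Ago3), beside 5.65% and 5.85% of all genes. Dicer1 (chr12:104687742-104751952) stood at 104, 104, 107 and 105 CPM with the empty vector, 122, 123, 136 and 130.3 with the unmutated, 196, 191, 207 and 204 with the 2-mutation and 119, 127, 120.4 and 122 with the 5-mutation hairpin. The rise was thus small with the unmutated and the 5-mutation hairpin and larger with the 2-mutation hairpin (0.28 ± 0.04, 0.93 ± 0.04 and 0.22 ± 0.04, SE; F test, adjusted p = 2.69e-13). Tnrc6b (chr15:80711313-80941085), which links Argonaute to the enzymes that shorten the poly(A) tail, stood at 263, 255, 284 and 249.5 CPM with the empty vector, 131, 152, 164 and 160.4 with the unmutated, 115, 118, 124 and 113 with the 2-mutation and 177, 223, 186 and 204 with the 5-mutation hairpin. Its relative Tnrc6a went the other way, with log2 fold changes of 0.42, 1.12 and 0.27 against -0.79, -1.16 and -0.41 for Tnrc6b, and for each the 12 hairpin libraries did not overlap the controls. Ago3 had -0.18, -1.02 and -0.60, and its call was lost in 6 of the 16 fits that left out 1 library (adjusted p 0.0506 to 0.162). The slicing Argonaute Ago2 was not a member: it averaged 354 ± 21.2 CPM in the controls and 516 ± 30.4, 85.4 ± 4.99 and 386 ± 8.20 (SD, n = 4) with the unmutated, 2-mutation and 5-mutation hairpin, called higher, lower and higher in turn. The exporter gene Xpo5 had log2 fold changes of 0.07, -0.05 and 0.10, Drosha of 0.02, -0.40 and -0.17 and Dgcr8 of 0.14, 0.03 and 0.22, so none was called with all hairpins.

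Of 12 measured microRNA host transcripts, Mir124a-1hg and Mir9-3hg were lower with all hairpins and none was higher, beside 5.85% and 5.65% of all genes. Mir124a-1hg (chr14:64587331-64593961), the host of a copy of the neuronal miR-124, stood at 81.8, 81.8, 75.9 and 73.6 CPM with the empty vector, 40.7, 39.7, 37.9 and 36.5 with the unmutated, 35.2, 41.5, 37.2 and 33.7 with the 2-mutation and 59.2, 70.4, 48.7 and 55.7 with the 5-mutation hairpin. The fall was larger with the unmutated and the 2-mutation than with the 5-mutation hairpin (log2 fold changes -1.02 ± 0.09, -1.09 ± 0.09 and -0.42 ± 0.09, SE; F test, adjusted p = 1.70e-06). Mir9-3hg averaged 15.4 ± 0.880 CPM with the empty vector and 11.7 ± 2.16, 8.23 ± 0.317 and 11.4 ± 1.80 with the hairpins. A host transcript is not the mature microRNA, which these libraries do not measure. Of 20 genes that miR-124 represses in neurons 3 were higher with all hairpins and none was lower, beside 5.65% and 5.85% of all genes. The 3 were Ptbp1, a splicing repressor that neurons switch off, Itgb1 and Ptpn12. When 1 library was left out, 3 to 4 were higher and 0 to 1 lower. Ptbp1 averaged 20.4 ± 1.18 CPM with the empty vector and 25.8 ± 0.757, 25.9 ± 1.32 and 25.2 ± 2.76 with the hairpins (SD, n = 4), without a called difference among the hairpins (F test, adjusted p = 0.806). Plppr3, E130317F20Rik and Gm17134 overlap it on the opposite strand.

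Antiviral genes held few members. Of 19 interferon response and double-stranded RNA sensor genes, Oasl2 was higher and Stat2 lower with all hairpins, near the background of 5.65% and 5.85%. Oasl2 was barely expressed, at 0.0427 CPM with the empty vector and 0.156, 1.37 and 0.212 with the hairpins, and its call was lost in 8 of the 16 fits that left out 1 library (adjusted p 0.0505 to 0.119). Stat2, which carries the interferon signal, averaged 33.0 ± 3.14 CPM with the empty vector and 22.4 ± 0.768, 20.7 ± 1.56 and 26.5 ± 0.964 with the hairpins.

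Transcripts with matches to microRNA seeds in their 3′ UTR were scored in each library across 14306 genes. The score is the difference in centred log2 CPM between genes with and without a match to bases 2 to 8 of the microRNA, at equal UTR length and GC content. Of 26 families written down, 22 had a mature sequence in the RefSeq entries used. For 6 the exact permutation test of the 12 hairpin against the 4 empty vector libraries passed (2-sided, adjusted over the 22). That test treats the libraries of the 3 hairpins as exchangeable, while the libraries of a group had similar scores, so it can give a small p wherever the empty vector group lies outermost, and it does not test an effect common to the hairpins. The scores are therefore given as a description. Which families passed also depended on the match and the genes used, as the closing section lists. Their mature sequences follow, with the seed in capitals, and no 2 of the 6 share a seed.
mmu-let-7a-5p: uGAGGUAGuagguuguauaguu
mmu-miR-125b-5p: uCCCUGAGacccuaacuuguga
mmu-miR-9-5p: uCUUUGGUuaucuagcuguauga
mmu-miR-181a-5p: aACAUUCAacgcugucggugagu
mmu-miR-218-5p: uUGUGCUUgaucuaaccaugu
mmu-miR-34a-5p: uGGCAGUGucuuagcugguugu

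Transcripts with matches to let-7, a family that rises as cells differentiate, had higher scores in the hairpin libraries. Their score was -0.0341, -0.0361, -0.0357 and -0.0480 in the 4 empty vector libraries, -0.0251, -0.0231, -0.0240 and -0.0273 with the unmutated, 0.0295, 0.0366, 0.0424 and 0.0369 with the 2-mutation and 0.0364, 0.0354, 0.0122 and 0.0240 with the 5-mutation hairpin. All 12 were above the 4 controls, but the unmutated libraries lay just above them and the others far above. The difference was 0.0513 on the log2 scale (adjusted p = 0.003022, from the smallest p the permutations can give, 0.000549), and 0.0303 when genes averaging below 2 in log2 CPM were left out (adjusted p = 0.134). Scores of miR-125b-5p (0.0202, adjusted p = 0.03828) and miR-9-5p (0.0147, adjusted p = 0.03143) were also higher with the hairpins, but some libraries overlapped. Both calls were lost without replicate 1, 3 or 4 of the empty vector (miR-125b-5p adjusted p 0.058 to 0.124, miR-9-5p 0.0677 to 0.106), and that of miR-125b-5p also without replicate 2 of it, replicate 1 or 2 of the 2-mutation or replicate 1 of the 5-mutation hairpin (0.0504 to 0.0604).

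Transcripts with matches to miR-34a-5p, miR-218-5p and miR-181a-5p had lower scores in the hairpin libraries, by 0.029, 0.0203 and 0.02 on the log2 scale (adjusted p = 0.003022 for each, 12 of 12 libraries below the 4 controls). For miR-34a-5p the score was 0.0207, 0.0204, 0.0243 and 0.0215 with the empty vector, 0.0138, 0.0123, 0.0054 and 0.0119 with the unmutated, -0.0148, -0.0185, -0.0154 and -0.0252 with the 2-mutation and -0.0167, -0.0066, -0.0199 and -0.0135 with the 5-mutation hairpin. The unmutated hairpin again lay nearest to the controls, whereas for miR-181a-5p it lay farthest, with a mean of -0.0128 against 0.0150 for the empty vector. With matches of 8 bases the scores of miR-34a-5p and miR-218-5p missed the threshold (-0.0216 and -0.0184, adjusted p = 0.195 and 0.192). The hairpins share the 4 control libraries here too.

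**Figure D4:**
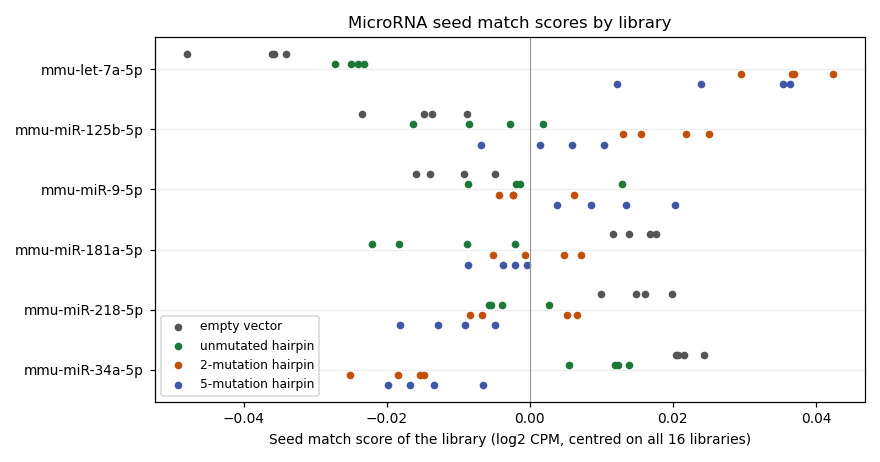
Seed match score of each library (log2 CPM, centred on all 16 libraries) for the 6 microRNA families that passed the permutation test of hairpin against empty vector libraries. Each point is 1 library. The 4 empty vector libraries lie outside the range of the 12 hairpin libraries for mmu-let-7a-5p, mmu-miR-181a-5p, mmu-miR-218-5p and mmu-miR-34a-5p.

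The remaining gene lists held few members, to be read beside 5.65% of all genes higher and 5.85% lower with all hairpins. Of 20 p53 targets Sesn2 and Bbc3 were higher with all hairpins, and Bbc3 lost the call in 5 of the 16 fits that left out 1 library (adjusted p 0.068 to 0.149). Of 20 genes of the integrated stress response, which ATF4 drives, Sesn2 was higher and Nupr1, Psat1 and Vldlr lower. Of the 20, 16 were higher with the unmutated and 17 lower with the 5-mutation hairpin, beside 20.8% and 26.5% of all genes. Of 18 endoplasmic reticulum chaperone genes Creld2 and Dnajb11 were higher and Sel1l lower. Of 25 actin-binding and injury genes Actn4, Vcl and Lgals1 were higher and Stmn4 lower. Gaa was the 1 member of 26 lysosome and autophagy genes and Sdhc that of 24 oxidative phosphorylation genes, both higher, and none of 24 cytosolic ribosomal protein genes was a member. The calls of Creld2, Dnajb11, Psat1, Lgals1 and Sdhc were each lost without some library, with adjusted p from 0.0506 to 0.213.

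**Figure D5:**
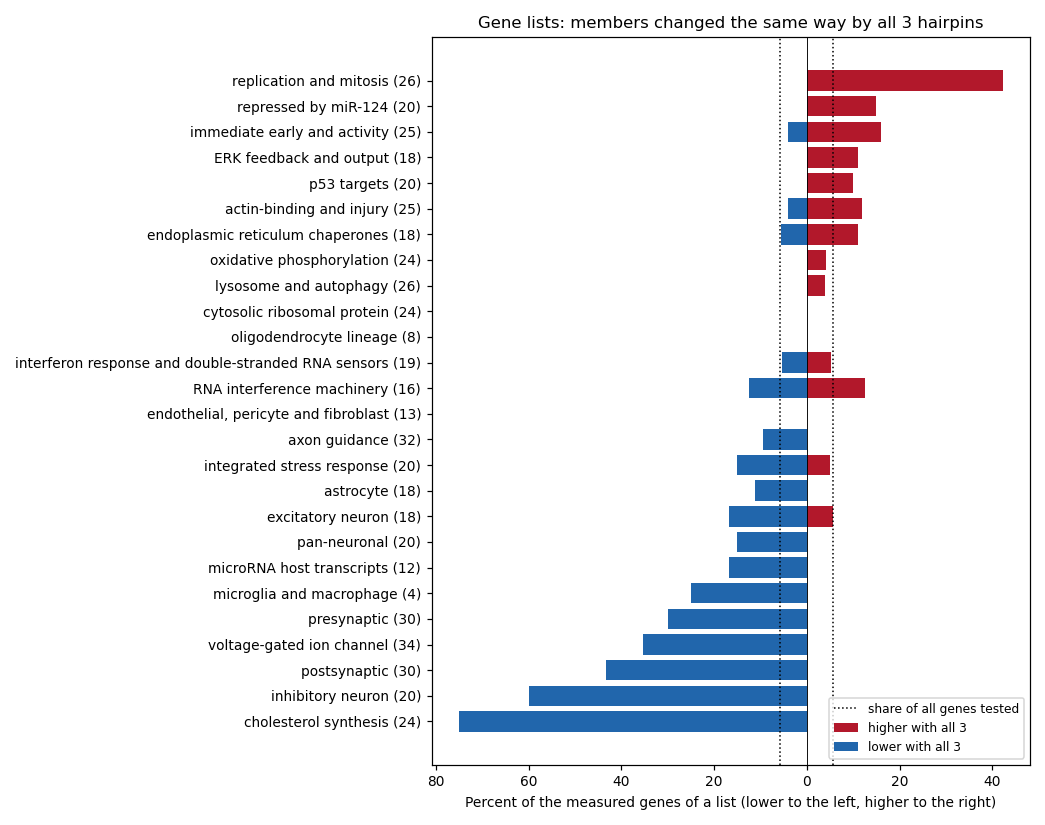
Share of the measured genes of each list (number in parentheses) that were lower with all 3 hairpins (bars to the left) or higher with all 3 (bars to the right). Dotted lines mark the share among all genes tested, 5.85% lower and 5.65% higher; cholesterol synthesis (18 of 24) and inhibitory neuron (12 of 20) reach farthest left and replication and mitosis (11 of 26) farthest right.

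Members also differed in properties the rule did not use. The lower genes were long, with a median gene length of 40323 bases against 20290 for the higher genes and 16747 for all genes tested, and 29.3% of them spanned over 100 kb against 9.36% and 12.4%. Their 3′ UTR had a median of 2136.5 bases against 1275 and 1390. Genes called with all hairpins but in mixed directions lay between, at 31494 bases and 1777 bases of 3′ UTR. Members were mostly protein-coding (93.0% of the higher, 89.1% of the lower and 74.3% of all tested) and well expressed, with a median log2 CPM of 4.48, 5.21 and 3.22 in the same order, and the part of the level in the differences of length was not tested. Of the members changed by at least 0.5 with each hairpin, 81.4% of the higher and 76.1% of the lower were protein-coding. Their median log2 CPM was 1.11 and 2.60, below that of all genes tested, and their median gene length 16111 and 28061 bases. The median GC content of the longest transcript of each gene was 51.1% for the higher, 47.7% for the lower and 48.8% for all genes. The ETS core CCGGAAGT, on either strand, stood in 7.94% of the promoter windows of the higher, 2.93% of those of the lower and 6.91% of those of all genes. These are descriptions of the called genes, which a filter on level and a threshold selected.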

How the data were processed

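TRIzol and RNeasy columns were used to isolate the RNA, which was depleted of ribosomal RNA and made into dUTP-stranded libraries (NEBNext Ultra II Directional), per the labels' protocols. Per the submitters' processing notes, the tools were STAR 2.7.2b, featureCounts, edgeR, cutadapt 1.15, Trim Galore 0.6.0 and bcl2fastq 2.20.0.422, with the build GRCm38.p6. The deposited values are raw read counts per gene for 55335 genes, and the strand setting of the counting is not given in the sources used here. Of these identifiers 54587 matched GENCODE vM21 with their version, 55154 when versions were ignored, and 181 did not match.

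Counts were filtered by level (filterByExpr, 19479 genes kept), scaled by TMM and modelled over the 16 libraries with 1 coefficient per group (quasi-likelihood, edgeR 4.0.16 under R 4.3.3). P-values were adjusted by Benjamini-Hochberg over all genes tested, in each contrast and in the F test among the hairpins. CPM are TMM-scaled, and log2 CPM used a prior count of 2. Fold changes of members describe how they were chosen. The members and lists were chosen with earlier results of these data known. The genes named were, in each direction, the 14 whose smallest change over the hairpins was largest, among members averaging at least 2 in log2 CPM and without overlap with the controls. To these were added the 8 most even and 4 least even per direction past 0.7 with each hairpin, up to 4 members per list by the p of the mean contrast, the RNA interference genes, double-stranded RNA sensors, the genes nearest the threshold and Rtn4. Other list members with values were chosen after these were seen. Seed scores were computed in Python 3.11.15 (numpy 2.4.6, pandas 2.3.3) over genes with a 3′ UTR of at least 50 bases and compared by an exact permutation test over libraries. The fit was tested on simulated counts. Replicates differed by more than sampling noise, with a chi-square over its degrees of freedom of 3.464 to 24.157. Some named genes and list members are not reported or plotted here. DESeq2 1.42.0 and the other alternatives are given in the closing section.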

Additional observations from a re-analysis of the deposited data

Results flagged for a closer look

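In each group of 4 libraries the highest and lowest values of the 130 named genes were compared with the other 3 libraries, and a library was listed where its gap to the nearest exceeded Dixon's 95% critical share of the group's range. Of 520 such checks 39 passed, and chance alone lists about 1 in 20. Values are CPM, with the range of the other 3 libraries in parentheses for some.

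Replicate 3 of the unmutated hairpin stood high for Insig1 at 85.4 (others 56.8 to 60.1), Stard4 at 63.9 (38.8 to 41.1) and Slc17a6 at 56.9 (32.8 to 33.7). It also stood high for Egr3 at 40.2, Gxylt2 at 4.12 and Tnrc6c at 205, and low for Mcm6 at 31.3. Replicate 3 of the 5-mutation hairpin stood high for Col4a1 at 112 (53.5 to 59.1), Fbn1 at 26.2 (12.8 to 15.1), Lgals1 at 6.12 (2.82 to 3.36), Nupr1 at 0.639 and Sesn2 at 89.8. Replicate 2 of that hairpin stood high for Ago3 at 44.1, Lin28b at 8.32 and Syt7 at 185, and low for Mcm6 at 14.8, Prkra at 31.5 and Psat1 at 69.2. Its replicate 4 stood high for Ccnc at 55.3, Ddx58 at 1.81 and Kcnj9 at 28.9, and its replicate 1 low for Syt1 at 586.

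With the 2-mutation hairpin, replicate 4 stood high for Cplx2 at 112, Hk2 at 2.34 and Ntn4 at 2.53, replicate 2 high for Kcnj9 at 29.3, and replicate 3 low for Dusp5 at 7.93 and Extl1 at 2.75. With the unmutated hairpin, replicate 4 stood high for Csf1r at 2.42 (0.999 to 1.13) and Ifih1 at 1.31, and replicate 1 high for Myzap at 0.242 and low for Oasl2 at 0.0808. Among the empty vector libraries, replicate 3 stood high for Cdt1 at 2.12 and Fam210b at 23.9 and low for Aldoc at 57.9 and Xpo5 at 69.3. Replicate 2 stood high for Lypd6 at 11.4, replicate 4 for Mcm2 at 8.01 and replicate 1 for Ran at 175.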

How the results depend on the processing

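The 1101 higher and 1139 lower genes became 1004 and 1175 with RLE size factors, 993 and 1182 with DESeq2, 1001 and 1148 without a filter on low counts, and 953 and 1209 without Gm26917 and Gm42418. Leaving out 1 library gave 939 to 1217 higher and 999 to 1233 lower genes. Stricter calls gave 733 higher and 863 lower genes at an adjusted p below 0.01, and 301 higher and 385 lower genes at a log2 change of at least 0.5, by construction of the rule. The labels do not say that replicate numbers pair the libraries. Deviations from the group means correlated at -0.0215 to 0.2719 over 24 same-numbered pairs (mean 0.1098, other pairs -0.0366), 12 of them over 0.1, and 11 of 16 libraries correlated best with their own number. The data thus hint at a pairing by number, which the main fit does not use. With the replicate block the counts were 1231 and 1273, of which 1091 and 1130 were the same genes, and Kcnq3 lost its call. Of 107 named members, 92 kept their call in all alternatives run, and none of the other 15 changed direction. Slc17a6 lost it when each hairpin was fitted with the empty vector alone (adjusted p = 0.0587).

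The families that passed the seed score test depended on the setting. With 8-base matches miR-22-3p (0.0467), miR-138-5p (0.0254), miR-17-5p (-0.0318) and miR-101a-3p (-0.0291) passed too (adjusted p 0.00604 to 0.0269), and with genes at a mean log2 CPM of at least 2 miR-128-3p (0.0168), miR-19b-3p (-0.0154) and miR-17-5p (-0.00904) did (0.00907 to 0.0453). Without 1 library, miR-153-3p (-0.0162) or miR-17-5p (-0.011) passed in 1 fit each. Other scores changed sign, and the cause was not tested. With 8-base matches they were -0.0012 for miR-26a-5p, -0.00628 for miR-29a-3p, -0.0367 for miR-132-3p (adjusted p = 0.0161), 0.0165 for miR-137-3p and -0.0169 for miR-195a-5p. With genes at a mean log2 CPM of at least 2 they were 0.00268 for miR-30a-5p and -0.00232 for miR-132-3p. Without 1 library, that of miR-132-3p ranged from -0.0011 to 0.00276, below 0 without any 1 replicate of the 2-mutation hairpin, and that of miR-195a-5p from -1.7e-05 (without replicate 2 of the 5-mutation hairpin) to 0.00291. Depth limits genes below about 1 CPM, such as Oasl2.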

Other observations

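A pair of gene groups was written down only after the values had been seen, so their counts are descriptions and support nothing. The background for both is 5.65% of all genes higher and 5.85% lower with all hairpins. Of 29 measured entries for the hypoxia response and glycolysis, 16 were lower with all 3 hairpins and none was higher, with a median log2 fold change of -0.59 and 14 to 17 lower over the fits that left out 1 library. They span the glucose transporter gene Slc2a1 (log2 fold changes -0.52, -1.18 and -1.66 with the unmutated, 2-mutation and 5-mutation hairpin), the glycolytic genes Hk2, Pfkl, Aldoa, Tpi1, Gapdh, Pgk1 and Eno1, and Pdk1, which restrains entry of pyruvate into mitochondria (-0.87, -0.94 and -0.43). The angiogenic factor gene Vegfa had -0.52, -1.39 and -1.0, and Gapdh, often used as a reference transcript, had -0.56, -1.54 and -0.56. Slc2a1 and Gapdh overlap genes on the opposite strand (Gm12868 and Iffo1), and Gapdh, Tpi1 and Pgk1 have near-identical pseudogene copies that the counting may split, so their values are uncertain.

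Of 25 basement membrane and extracellular matrix genes, 5 were higher with all hairpins (Col4a1, Col4a2, Col6a2, Fbn1 and Sdc1) and 1 was lower (Col5a1, -1.03, -1.01 and -0.53, which overlaps 2810430I11Rik and Gm13372 on the opposite strand). Col6a2, a microfibrillar collagen chain, had a mean log2 fold change of 1.06 over the hairpins. Without replicate 3 of the 5-mutation hairpin, the log2 fold change of that hairpin alone was 1.06 ± 0.15 (SE). The mean over the hairpins and the value of that hairpin are different measures, so they do not show what that library changed.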
